A study of Mus musculus with 16 samples.

Results

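The genes described here are 41 mouse genes of autophagy and of the lysosome, chosen by name for their function, with earlier results of these data known. All 41 were found among the 17159 genes of the depth-normalized table, and all 41 were among the 12469 genes tested, whose mean level was 10 or more. They comprise 4 genes of the initiation complex, 2 of the lipid kinase complex, 5 of membrane supply, 7 of the conjugation machinery, 4 of the ATG8 family, 4 cargo receptors, the 3 transcription factors of the TFEB family, 3 lysosomal membrane proteins and 9 lysosomal enzymes or their activator. RNA came from CD8+ T cells of C57BL/6 mice after 2 days of activation through CD3 and CD28 and a further 36 h in a test medium. The test media, with 4 libraries for each and 16 in total, were complete fresh medium, which holds methionine (fresh+), methionine-free fresh medium (fresh-), supernatant collected from the mouse melanoma line B16F10 (Sup-, called supernatant) and the same with methionine added (Sup+, called supplemented supernatant). Every library therefore comes from activated T cells, and the age and sex of the mice, and the methionine content of the supernatant, are not given in the sources used here.

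Autophagy encloses portions of cytoplasm in a double membrane, the autophagosome, which then fuses with lysosomes so that their hydrolases can break down the contents and return amino acids to the cell. The ULK kinase complex and a phosphatidylinositol 3-kinase complex start the membrane, ATG9 and ATG2 supply it with lipid, and a pair of ubiquitin-like conjugation reactions attach ATG8 proteins (LC3 and GABARAP) to it, where receptors such as p62 deliver cargo. The pathway is held back by mTORC1 when amino acids are plentiful, and TFEB, TFE3 and MITF promote transcription of its genes and of lysosomal genes. In T cells autophagy is known for its part in the survival of activated and memory cells. Only RNA was measured here, which gives no reading of autophagosomes or of lysosomal activity.

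Between 25799636 and 42308209 reads were recovered per library. Whether the 4 libraries of each medium come from separate mice or cultures is not stated in the labels, so each p-value measures the spread between these libraries, which may be technical. The summed level of 8 CD8 T cell markers, among them Cd8a, Cd8b1 and Cd3e, was 111900 to 114000 depth-normalized reads in medium without methionine, 140900 to 147200 in complete fresh medium, 130600 to 133900 in supernatant and 154900 to 166000 in supplemented supernatant. These markers did not move as one on removal of methionine: Cd8a (log2 0.32) and Cd2 (0.61) were called higher, Cd8b1 was not called (-0.06), and the other 5 were called lower, from -0.26 for Cd247 to -1.68 for Cd3g. Markers listed for other cells were lower and differed between the media. Bulk RNA does not show which cells their reads came from, the CD8+ T cells included, so these sums do not measure other cells. The part of these markers in the values of the 41 genes was not tested. In the same order, 5 CD4 T cell markers summed to 3981 to 4125, 1981 to 2153, 4109 to 4619 and 3350 to 3638. Most of this sum was Zbtb7b, at a mean of 3672 without methionine and 1781 in complete fresh medium, and called higher. Foxp3, at 196 and 50.8 (log2 1.92), and Cd40lg, at 38.5 and 22.7 (0.73), were called higher too. Il4, at 4.95 and 11.9, was called lower (-1.01), with overlapping libraries. It reached the mean level of 10 needed for testing only through supplemented supernatant (30.2), so this call rests on few reads. Cd4 itself, at 163 and 182, was not called (-0.16). The 5 B cell markers summed to 778 to 966, 503 to 542, 731 to 858 and 363 to 385, mostly Cd79b. The 5 NK cell markers summed to 2031 to 2243, 1426 to 1559, 3132 to 3296 and 2795 to 2914. Among them Klra8 was at 0 in complete fresh medium and supplemented supernatant. Most of the NK sum was Eomes, at a mean of 1258 without methionine and 1009 in complete fresh medium (log2 0.32, called higher). Ncr1, at 9.9 and 5.5, was not called, while Klre1 rose (log2 1.15) and Klrb1c fell (-2.03) on removal. In bulk RNA, fewer cells of a type and less RNA per cell cannot be told apart.

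Removal of methionine from fresh medium moved these genes in both directions, Wipi1 by the most. Levels are depth-normalized reads, that is reads divided by the library's size factor, and fold changes are differences of log2(level + 1), which understate the change of low genes. A gene was called, and is said to have risen or fallen, where limma gave a Benjamini-Hochberg adjusted p under 0.05 over all genes tested, two-sided. Of the 41, 15 rose and 21 fell, against 43.3% of all genes tested that rose and 42.3% that fell, and 5 (Ulk1, Becn1, Atg16l1, Optn and Lamp2) were not called. Scaling by total reads, which moves the median of all genes from 0.01 to 0.17, gave 20 higher and 14 lower, against 51.1% and 35.1% of all genes, so the balance of the directions rests on the scaling. Only Mitf rose at least 2-fold, where 14.2% of all genes did, and Wipi1 and Atg9a fell at least 2-fold, where 13.5% did. The median log2 fold change was -0.07, and it was 0.09 with total-read scaling. The median size of the change, regardless of sign, was 0.33 for these genes and 0.57 for all genes tested. In 31 of the 41 the libraries of one fresh medium did not overlap those of the other, against 81.3% of all genes tested.

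**Figure D1:**
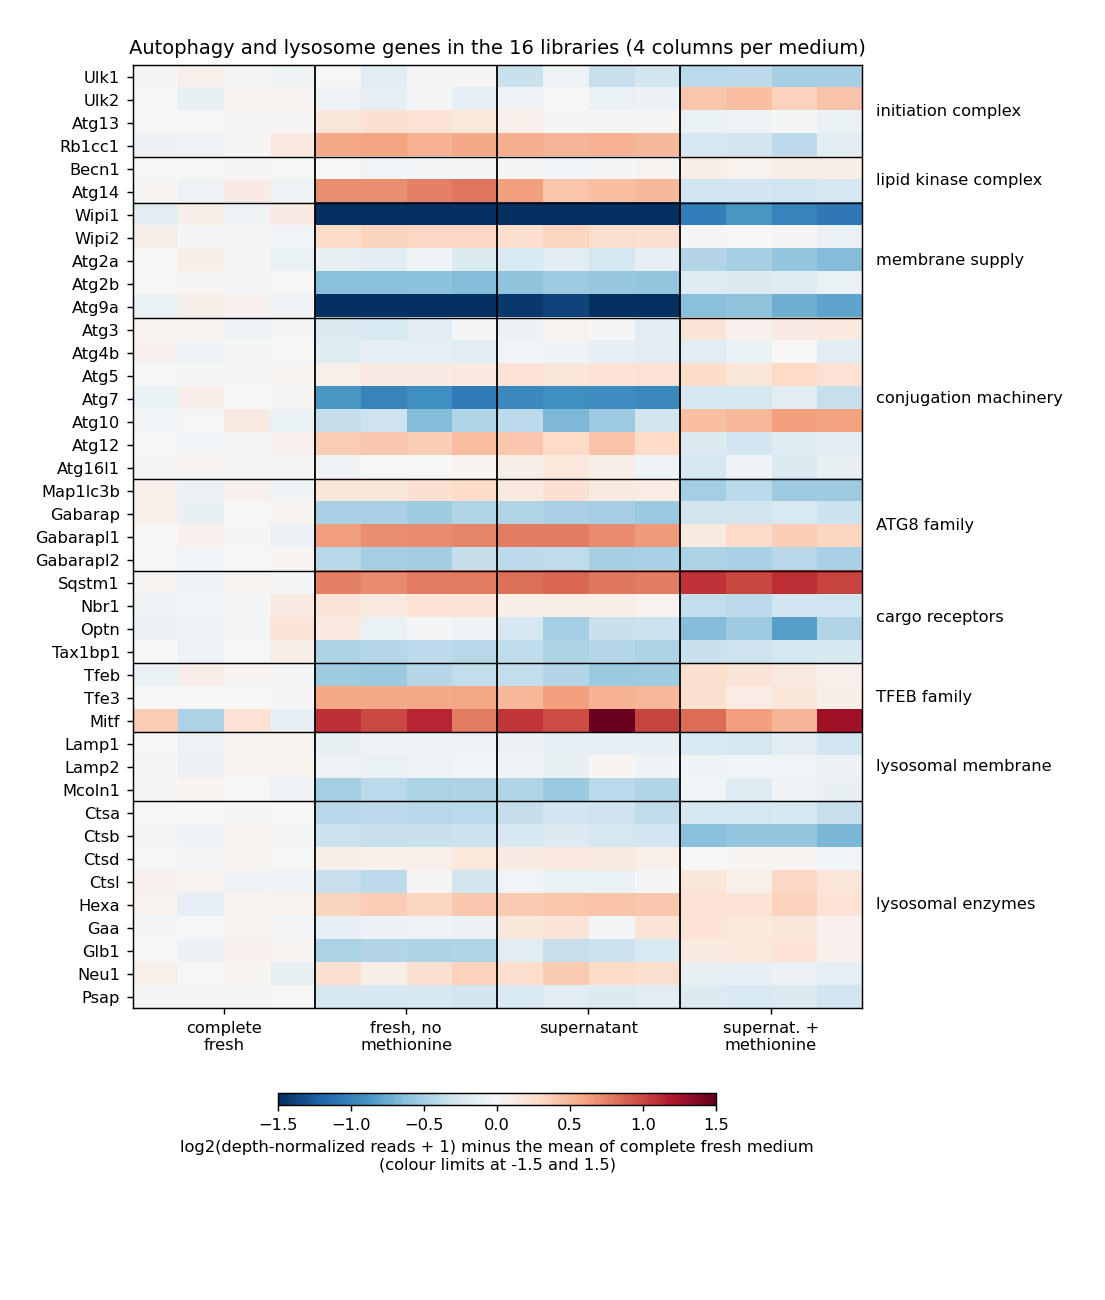
Heat map of the 41 genes (rows, by role) in the 16 libraries (columns, 4 per medium), as log2(depth-normalized reads + 1) minus the mean of complete fresh medium, with colours limited at -1.5 and 1.5. Methionine-free fresh medium and supernatant show nearly the same colours in most rows, Wipi1 and Atg9a are low in both, and Sqstm1 is high in all libraries outside complete fresh medium.

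When methionine was added to supernatant, 15 of the 41 rose and 18 fell, against 41.8% of all genes in each direction, and 8 (Atg4b, Atg5, Gabarapl2, Mitf, Lamp2, Ctsa, Gaa and Psap) were not called. With total-read scaling, which moves the median of all genes to -0.14, 11 rose and 26 fell, against 34.9% and 49.4% of all genes. Wipi1 and Atg10 rose at least 2-fold, where 11.0% of all genes did, and none fell that far, where 11.3% did. The Atg10 log2 fold change is 1.01 ± 0.099 (SE), so close to 2-fold that the count was 1 without any of replicates 1 and 2 of supernatant or 2 and 3 of supplemented supernatant. The median log2 fold change was -0.03, or -0.16 with total-read scaling.

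Of the 4 genes of the initiation complex 2 rose and 1 fell on removal, and 1 rose and 3 fell on addition (3 and 0, and 1 and 3, with total-read scaling). These counts, and those by role below, stand against 43.3% of all genes tested that rose and 42.3% that fell on removal. On addition the shares were 41.8% in each direction. The scaffold Rb1cc1 (FIP200) had the largest change on removal among the 4 initiation genes. Its mean was 2218 ± 166 depth-normalized reads (SD, n = 4) in complete fresh medium and 3267 ± 64.4 without methionine, a log2 fold change of 0.56 ± 0.044 (SE, adjusted p 1.33e-13). In supernatant it went with added methionine from 3174 to 1840.5, a change of -0.79 ± 0.044 (SE, adjusted p 1.99e-17). The kinase Ulk1 stood at 2238, 2423, 2316 and 2198 depth-normalized reads in the 4 libraries of complete fresh medium, and at 2304, 2048, 2246 and 2328 without methionine. The libraries of supernatant gave 1818, 2177, 1802 and 1888, and those of supplemented supernatant 1727, 1740.5, 1623 and 1617. The fresh media overlapped, with a log2 fold change of -0.04 ± 0.049 (SE, adjusted p 0.442) that was not called and whose sign turned to 0.12 with total-read scaling, where it was called (adjusted p 0.0282). The 4 supplemented libraries lay below all 4 of supernatant, with a log2 fold change of -0.19 ± 0.049 (SE, adjusted p 0.000651). Ulk2, the paralogous kinase, instead rose from 1829 to 2551 when methionine was added, by 0.48 ± 0.04 (SE, adjusted p 9.24e-13), while its value for removal was -0.09 (adjusted p 0.0301) with overlapping libraries. Ulk2 on removal was 0.06 with total-read scaling, and its call was lost with edgeR (adjusted p 0.115), with DESeq2 (0.072) and without any 1 of replicates 1 and 3 of methionine-free medium and 0, 2 and 3 of complete fresh medium (adjusted p 0.0547 to 0.106). Atg13, the regulatory subunit, rose by 0.19 on removal and changed by -0.09 on addition. The latter call was lost without replicate 0 of supernatant or of supplemented supernatant (adjusted p 0.0947 and 0.0557) and with quantile normalization (0.103).

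Atg14 and Becn1 encode partners in the autophagy form of the phosphatidylinositol 3-kinase complex, and they changed differently. Atg14 stood at 508, 468, 539 and 471 depth-normalized reads in the 4 libraries of complete fresh medium, and at 801, 804, 839 and 869 without methionine. Values in supernatant were 757, 664, 679 and 695, and those after methionine was added 402, 407, 401 and 415. All 8 libraries of methionine-free medium and supernatant exceeded the 8 others. Its log2 fold change was 0.74 ± 0.058 (SE, adjusted p 1.71e-13) for removal and -0.78 ± 0.058 (SE, adjusted p 5.23e-14) for addition. Becn1 differed little, at 5434 depth-normalized reads in complete fresh medium, 5367 without methionine, 5428 in supernatant and 5761 in supplemented supernatant. Its log2 fold change for addition, 0.09 (adjusted p 0.0058), turned to -0.05 with total-read scaling and lost its call with quantile normalization (adjusted p 0.484). For removal it was -0.02 and not called, but it was called at 0.14 with total-read scaling (adjusted p 2.49e-05) and 0.06 with quantile normalization (0.0421). Exons of the antisense gene Cntd1 cover 43.9% of the exon bases of Becn1, and because the strand used in counting is not given in the sources used here, reads of such antisense genes cannot be separated.

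The membrane supply genes held the steepest falls on removal. Wipi1 lies at chr11:109573331-109611967, minus strand (GRCm38, GENCODE M21 annotation, as for all gene positions here). Its protein binds phosphatidylinositol 3-phosphate on the growing membrane, and Wipi1 stood at 197, 234, 211 and 239.5 depth-normalized reads in the 4 libraries of complete fresh medium, and at 15.2, 15.8, 20.9 and 12.2 without methionine. Its levels were 17.4, 25.8, 16.7 and 18.2 in supernatant and 107, 119, 109.6 and 104 in supplemented supernatant. Every library of complete fresh medium exceeded every other library, the supplemented libraries came next, and the 8 libraries of the remaining media were lowest and overlapped. The fold change on the log2 scale was -3.72 ± 0.17 (SE, adjusted p 1.02e-19) for removal and 2.45 ± 0.17 (SE, adjusted p 1.06e-14) for addition. Wipi2, its paralog, moved the other way, by 0.31 ± 0.035 (SE, adjusted p 8.79e-10) and -0.31 ± 0.035 (SE, adjusted p 7.77e-10), from 2621 to 3240 depth-normalized reads in fresh medium and from 3161 to 2550.4 in supernatant. These signs for the Wipi pair were the same with every scaling tried.

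Atg9a (chr1:75180860-75192196, minus strand) encodes the transmembrane lipid scramblase of the vesicles that seed the autophagosome, and it stood at 3031, 3457, 3409.5 and 3124 depth-normalized reads in the 4 libraries of complete fresh medium, and at 1151, 1094, 1044 and 1000.3 without methionine. For supernatant the 4 values were 1187, 1241, 1105 and 1152, and for supplemented supernatant 2109, 2141, 1952 and 1886. The order of the media matched that of Wipi1, with no overlap between complete fresh medium, supplemented supernatant and the remaining 8 libraries. The log2 fold change was -1.60 ± 0.05 (SE, adjusted p 1.35e-24) for removal and 0.79 ± 0.05 (SE, adjusted p 6.57e-16) for addition. A predicted gene on the same strand, Gm29253, covers 31.8% of the exon bases of Atg9a, so the value may hold its reads.

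The lipid transfer gene Atg2b stood at 3966, 4047, 3948 and 4027 depth-normalized reads in the 4 libraries of complete fresh medium, and at 2596, 2578, 2599.6 and 2546 without methionine. In supernatant it stood at 2636, 2741, 2687 and 2652, and in supplemented supernatant at 3510.4, 3456, 3496 and 3726. It thus followed the order of Atg9a with a smaller span, -0.63 ± 0.031 (SE, adjusted p 5.63e-19) for removal and 0.40 ± 0.031 (SE, adjusted p 1.11e-13) for addition. Its paralog Atg2a did not reverse: it was -0.14 on removal (adjusted p 0.00391, overlapping libraries, 0.02 with total-read scaling) and fell again on addition, at -0.35 ± 0.044 (SE, adjusted p 6.53e-09). Of the 5 membrane supply genes, 4 fell and 1 rose on removal, with a median of -0.63, and this median stayed negative with each scaling tried.

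Of the 7 conjugation genes, 2 rose and 4 fell on removal, and 3 rose and 2 fell on addition. With total-read scaling this balance turned, to 3 higher and 2 lower on removal and 2 higher and 4 lower on addition. Atg7 (chr6:114643097-114860614, plus strand), the E1-like enzyme that both conjugation reactions need, had the largest change in fresh medium. Atg7 stood at 1210.3, 1387, 1288 and 1314 depth-normalized reads in the 4 libraries of complete fresh medium, and at 710.0, 647, 685 and 621 without methionine. The libraries of supernatant gave 665, 687, 678 and 665, and those of supplemented supernatant 1101, 1096, 1164 and 1019.9. The 8 libraries of complete fresh and supplemented media lay above the other 8. Its log2 fold change was -0.96 ± 0.052 (SE, adjusted p 7.35e-18) for removal and 0.70 ± 0.052 (SE, adjusted p 5.14e-14) for addition. Atg10, the E2-like enzyme for ATG12, went from 205 to 151 depth-normalized reads on removal, -0.44 ± 0.099 (SE, adjusted p 0.000128), and from 148 to 297 on addition, 1.01 ± 0.099 (SE, adjusted p 3.79e-11). Atg12, the ubiquitin-like protein itself, moved against both, from 1918 to 2540.3 and from 2453 to 1655, or 0.41 ± 0.039 (SE, adjusted p 2.87e-11) and -0.57 ± 0.039 (SE, adjusted p 6.92e-15). Enzymes and substrate of the same reaction thus differed in sign, also with each scaling tried.

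The other conjugation genes moved less. Atg3, the E2-like enzyme for ATG8 proteins, had log2 fold changes of -0.15 and 0.19 for removal and addition, which total-read scaling moved to 0.008 and 0.06, neither called. Atg4b, the protease that trims ATG8 proteins, was at -0.16 for removal, and 0.003 with total-read scaling, and at -0.02 for addition, which was not called but became -0.15 and was called with total-read scaling (adjusted p 0.000586). Atg5, the partner of ATG12, rose by 0.12 on removal and was not called on addition (0.04), although with total-read scaling the latter was -0.10 and called (adjusted p 0.0165). The call for removal was lost with quantile normalization (adjusted p 0.098). Atg16l1, which places the conjugate on the membrane, was not called on removal (-0.01; 0.15 and called with total-read scaling, adjusted p 0.00327) and was -0.23 on addition, with overlapping libraries.

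The 4 ATG8 family genes, whose products are attached to the autophagosome, split into pairs on removal of methionine. Map1lc3b (chr8:121590361-121598760, plus strand) and Gabarapl1 (chr6:129533160-129542346, plus strand) rose, Gabarap and Gabarapl2 fell, and these signs were the same with every scaling tried. Map1lc3b (LC3B) stood at 4400.3, 3903, 4359.5 and 3996 depth-normalized reads in the 4 libraries of complete fresh medium, and at 4717, 4708, 4891 and 5018 without methionine. Values in supernatant were 4601, 4881, 4558 and 4498, and those after methionine was added 2912, 3133, 2861 and 2855. Supplemented supernatant was lowest, below all 12 other libraries, and the methionine-free libraries all exceeded those of complete fresh medium. The fold change on the log2 scale was 0.22 ± 0.039 (SE, adjusted p 5.82e-06) for removal and -0.66 ± 0.039 (SE, adjusted p 8.96e-17) for addition.

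Gabarapl1 stood at 2173, 2259, 2184 and 2042 depth-normalized reads in the 4 libraries of complete fresh medium, and at 3331, 3509, 3525 and 3597 without methionine. Its levels were 3703, 3718, 3543 and 3374 in supernatant and 2371, 2643, 2791 and 2715 in supplemented supernatant. The media without added methionine were highest, supplemented supernatant lay between, and complete fresh medium was lowest, with no overlap. The log2 fold change was 0.69 ± 0.043 (SE, adjusted p 2.63e-16) for removal and -0.45 ± 0.043 (SE, adjusted p 2.00e-11) for addition. A gene on the other strand, 1700101I11Rik, covers 28.3% of the exon bases of Gabarapl1. Gabarap went the other way, from 5484 ± 298 to 3913 ± 91.9 on removal (-0.49 ± 0.035 SE, adjusted p 1.77e-14) and from 3870.5 ± 123 to 4521 ± 122 on addition (0.22 ± 0.035 SE, adjusted p 6.90e-07), means ± SD of 4 libraries. Gabarapl2 fell on removal, -0.45 ± 0.04 (SE, adjusted p 3.26e-12), from 2530.4 to 1857, and was at 1869 in supernatant and 1829 with methionine added, -0.03 ± 0.04 (SE, adjusted p 0.477), not called. With total-read scaling the Gabarapl2 change on addition was called at -0.16 (adjusted p 0.000322), and in the FPKM table it was 0.03.

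Per transcript length, in FPKM, Gabarap was the highest of the 4 in complete fresh medium, at 175 ± 21.5 (SD, n = 4). Gabarapl2 followed at 86.8 ± 7.6, Map1lc3b at 72.1 ± 10.2 and Gabarapl1 at 37.2 ± 3.23. Without methionine the FPKM were 117 ± 12.1 for Gabarap, 79.1 ± 6.05 for Map1lc3b, 63 ± 8.47 for Gabarapl2 and 57.1 ± 2.47 for Gabarapl1. The order of Gabarapl2 and Map1lc3b differed between the media: Gabarapl2 was the higher in 4 of 4 libraries of complete fresh medium and in 0 of 4 without methionine, and in 0 of 4 of supernatant and 4 of 4 of supplemented supernatant. Gabarapl2 and Gabarapl1 lay within their spread of each other without methionine, Gabarapl2 being higher in 3 of 4 libraries.

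Among the cargo receptors, Sqstm1 (p62, chr11:50199366-50210827, minus strand), which binds ubiquitin on cargo and ATG8 proteins on the membrane, rose in both comparisons. Sqstm1 stood at 7248, 6739.6, 7204 and 6900.1 depth-normalized reads in the 4 libraries of complete fresh medium, and at 11896, 11465, 12084 and 12075 without methionine. For supernatant the 4 values were 12415, 12710, 12104 and 11961, and for supplemented supernatant 14930, 14048, 15101 and 14137. Complete fresh medium was lowest, the 8 libraries without added methionine were higher and overlapped, and supplemented supernatant was highest. Sqstm1 thus rose on removal by 0.76 ± 0.031 (SE, adjusted p 2.55e-21) and also on addition, by 0.24 ± 0.031 (SE, adjusted p 1.37e-08), a sign kept with each scaling, although the second call was lost under quantile normalization, where it was 0.06 (adjusted p 0.0825), and with FPKM values in a fit without the replicate block (adjusted p 0.137; 0.000118 with it). The difference between its methionine effects in supernatant and fresh medium was 1.001 ± 0.044 (SE, adjusted p 7.08e-19). The antisense gene Mrnip covers 17.3% of the exon bases of Sqstm1.

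The other 3 receptors, which also bind ubiquitin and ATG8 proteins, did not share that pattern. Nbr1 rose on removal from 3812 to 4329.8 (0.19 ± 0.036 SE, adjusted p 2.27e-05) and fell on addition from 4052 to 3015 (-0.43 ± 0.036 SE, adjusted p 1.30e-12). Tax1bp1 fell on removal from 13307 to 9888 (-0.43 ± 0.032 SE, adjusted p 3.25e-14). On addition it was 0.16 (adjusted p 3.80e-05), a call lost with total-read scaling (0.02) and quantile normalization (adjusted p 0.965). Optn was not called on removal (-0.01) and was -0.27 on addition (adjusted p 0.00928), a call lost without replicate 2 of supplemented supernatant (adjusted p 0.056).

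**Figure D2:**
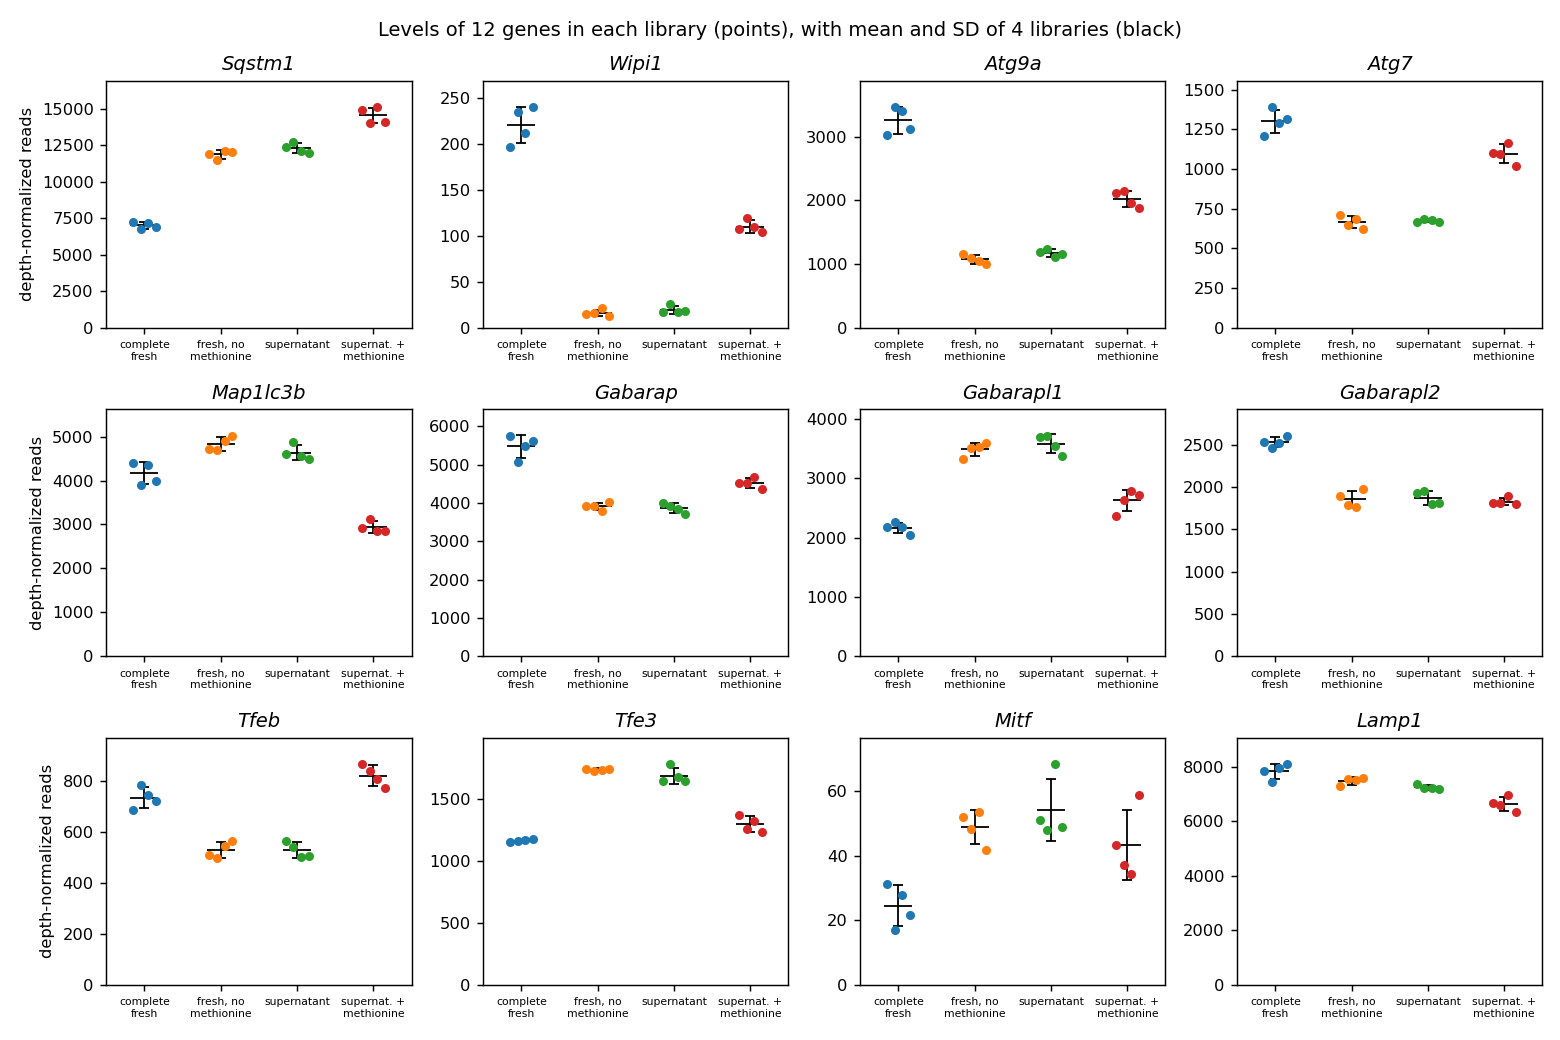
Depth-normalized reads (vertical axes, from 0) of 12 genes in each library (points), with the mean and SD of the 4 libraries of each medium in black. Sqstm1 is lowest in complete fresh medium and highest in supplemented supernatant, Wipi1, Atg9a and Atg7 are low in both media without added methionine, and Tfeb and Tfe3 run in opposite directions.

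The transcription factor genes of the TFEB family, Tfeb (chr17:47737030-47792419, plus strand), Tfe3 (chrX:7762560-7775202, plus strand) and Mitf (chr6:97807052-98021349, plus strand), differed in sign. Tfeb stood at 686, 785, 746 and 721 depth-normalized reads in the 4 libraries of complete fresh medium, and at 509, 496, 546 and 566 without methionine. In supernatant it stood at 566, 542, 499.6 and 506, and in supplemented supernatant at 865, 838, 807 and 771. The 8 libraries with methionine added or present lay above the other 8. Tfeb fell on removal by log2 -0.47 ± 0.06 (SE, adjusted p 1.01e-08) and rose on addition by 0.63 ± 0.06 (SE, adjusted p 1.52e-11). Tfe3 by contrast stood at 1154, 1158, 1163 and 1173 depth-normalized reads in the 4 libraries of complete fresh medium, and at 1742, 1719, 1729 and 1742 without methionine. The libraries of supernatant gave 1647, 1777, 1671 and 1643, and those of supplemented supernatant 1369.9, 1254, 1321 and 1235. All 8 libraries without added methionine exceeded the others, and Tfe3 rose on removal by 0.58 ± 0.04 (SE, adjusted p 6.68e-15) and fell on addition by log2 -0.38 ± 0.04 (SE, adjusted p 2.40e-10). These opposite signs of Tfeb and Tfe3 were the same with every scaling tried.

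Mitf was scarce and stood at 31.3, 16.9, 27.9 and 21.8 depth-normalized reads in the 4 libraries of complete fresh medium, and at 51.9, 48.4, 53.7 and 41.8 without methionine. Values in supernatant were 51.1, 48.1, 68.4 and 49, and those after methionine was added 43.3, 37, 34.2 and 58.9. Complete fresh medium was lowest and its libraries overlapped with no other medium. Its log2 fold change was 1.001 ± 0.21 (SE, adjusted p 4.71e-05) for removal, and -0.33 ± 0.21 (SE, adjusted p 0.138) for addition, not called. The removal value sits at the 2-fold line, so the count of 1 gene at least 2-fold higher became 0 without any of replicates 0 and 2 of methionine-free medium or 1 and 3 of complete fresh medium, and with edgeR, DESeq2 or a pseudocount of 10. The addition was called with total-read scaling (adjusted p 0.0411) and without replicate 3 of supplemented supernatant (adjusted p 0.0404). MITF is also the master regulator of pigment cells, so markers of melanoma cells are given beside it: of 6 listed, 5 had values and their sum was 203 to 233 without methionine, 74.7 to 117 in complete fresh medium, 183 to 200.2 in supernatant and 56.8 to 98.8 in supplemented supernatant. Tyrp1 was at 0 in all libraries of both fresh media, Dct in all of complete fresh medium and Mlana in all of supplemented supernatant. Pmel and Tyr were tested, and Pmel, like Mitf, was higher in methionine-free than in complete fresh medium (log2 2.57), while Tyr was lower (-0.70). The part of these markers in the Mitf result was not tested.

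TFEB, TFE3 and MITF bind DNA at the E-box CACGTG, extended in many lysosomal genes, so the promoters of the 41 genes were searched on both strands for CACGTG, for TCACGTGA, which contains it, and for TGATGNAA, a site type bound by ATF4 and CEBP factors. Sequences from 250 bases before to 50 after the start were taken from RefSeq (GRCm38.p6), where 36 of the 41 genes matched. A gene was counted where any of its starts held the motif. CACGTG was present in 11 of the 36 (30.6%), in 11.9% of 8902 tested genes that matched, and in 8.09% of all 27025 genes with a promoter there. TCACGTGA was present in 4 (Atg3, Ctsa, Ctsd and Mcoln1, 11.1%), in 2.29% of tested genes and 1.125% of the 27025. TGATGNAA was present in 1 (Ctsl, 2.78%), in 2.89% of tested genes and 4.51% of the 27025. The 4 stretches of 60 bases that follow are shown because they hold the motif upstream of annotated exons in genes of 3 roles, with the matches in capitals.
Lamp1, chr8:13159101-13159160, plus strand: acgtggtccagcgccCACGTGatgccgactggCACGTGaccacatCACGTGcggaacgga
Mcoln1, chr8:3500397-3500456, plus strand: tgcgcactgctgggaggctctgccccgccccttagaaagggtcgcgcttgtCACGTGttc
Glb1, chr9:114401003-114401062, plus strand: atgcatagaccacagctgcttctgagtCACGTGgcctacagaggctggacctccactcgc
Atg3, chr16:45158725-45158784, plus strand: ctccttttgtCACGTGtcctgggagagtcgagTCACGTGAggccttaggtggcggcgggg
Lamp1 held 4 copies of CACGTG in its promoter, 3 of them in the stretch shown, and Atg3 held both CACGTG and TCACGTGA. Of the 11 genes with CACGTG (Atg14, Atg3, Atg5, Atg7, Ctsa, Ctsd, Ctsl, Gaa, Glb1, Lamp1 and Mcoln1), 3 rose and 8 fell on removal, with a median of -0.15, and of the 25 matched genes without it 10 rose and 12 fell, with a median of -0.07, against 43.3% and 42.3% of all genes tested. With total-read scaling the 11 had 4 higher and 4 lower, with a median of 0.008, and the 25 had 12 and 9, so the split of 3 to 8 did not hold. On addition 5 of the 11 rose and 3 fell, and 9 of the 25 rose and 11 fell, against 41.8% of all genes in each direction. That scaling gave 3 higher and 6 lower of the 11, and 8 and 16 of the 25. A match describes these letters and is no sign that a factor was bound.

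The lysosomal membrane genes changed little apart from Mcoln1, the calcium channel TRPML1, which fell from 1050.3 to 761 on removal (-0.47 ± 0.049 SE, adjusted p 1.60e-10) and rose from 761 to 979.6 on addition (0.36 ± 0.049 SE, adjusted p 3.50e-08). Lamp1, a main glycoprotein of the lysosomal membrane, stood at 7859, 7455, 7977 and 8093 depth-normalized reads in the 4 libraries of complete fresh medium, and at 7282, 7552, 7526 and 7588 without methionine. Its levels were 7377, 7222, 7229 and 7186 in supernatant and 6677, 6588, 6962 and 6358 in supplemented supernatant. The fresh media overlapped, supplemented supernatant was lowest, and the log2 fold change on addition was -0.13 ± 0.031 (SE, adjusted p 0.00033). On removal it was -0.07 ± 0.031 (SE, adjusted p 0.0416), a call lost with edgeR, without the filter on low values, and without any 1 of replicates 0, 1 and 2 of methionine-free medium or 0, 2 and 3 of complete fresh medium (adjusted p 0.0517 to 0.132), and turned to 0.09 with total-read scaling and 0.03 with quantile normalization. Lamp2, the related protein that also serves chaperone-mediated autophagy, was called in neither, at -0.07 and -0.01, although removal was called without replicate 1 of complete fresh medium (-0.10 at an adjusted p of 0.0111). The scaling moved Lamp2 both ways: on removal it was called at -0.12 with quantile normalization (adjusted p 0.0028) and at 0.09 with total-read scaling (0.0237), and on addition at -0.14 with total-read scaling (0.000565).

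Of the 9 lysosomal enzyme genes, 3 rose and 6 fell on removal, and 2 rose and 4 fell on addition, with medians of -0.25 and -0.04. With total-read scaling these were 3 and 4 (median -0.09) and 1 and 7 (median -0.17). The aspartic protease Ctsd stood at 15757, 15462, 16112 and 15777 depth-normalized reads in the 4 libraries of complete fresh medium, and at 16758, 16581, 16618 and 17631 without methionine. For supernatant the 4 values were 17227, 17403, 17318 and 16639, and for supplemented supernatant 15735, 16112, 16139 and 15305. It was thus higher in the media without added methionine, without overlap, by 0.10 ± 0.028 (SE, adjusted p 0.00159) for removal and -0.12 ± 0.028 (SE, adjusted p 0.000304) for addition, although the sign for removal turned in the FPKM table (-0.02). The predicted gene Gm49369, on the same strand, covers 34.4% of the exon bases of Ctsd.

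The cysteine proteases Ctsb and Ctsl differed. Ctsb fell on removal from 8388 ± 285 to 6670.5 ± 59.5 depth-normalized reads (SD, n = 4), by log2 -0.33 ± 0.03 (SE, adjusted p 6.10e-12), and fell again on addition from 7058 ± 172 to 5436 ± 170.3, by log2 -0.38 ± 0.03 (SE, adjusted p 2.56e-13). Ctsb was therefore highest in complete fresh medium and lowest in supplemented supernatant. Ctsl stood at 353, 349, 322 and 326 depth-normalized reads in the 4 libraries of complete fresh medium, and at 266, 256, 340.3 and 277 without methionine. In supernatant it stood at 329, 314, 313 and 334, and in supplemented supernatant at 382, 357, 419 and 384. Its fresh media overlapped through 1 methionine-free library, and the supplemented libraries were highest. The fold change on the log2 scale was -0.25 ± 0.08 (SE, adjusted p 0.00445) for removal and 0.25 ± 0.08 (SE, adjusted p 0.00427) for addition, neither of which was called with total-read scaling (adjusted p 0.275 and 0.149).

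Among the glycosidases, Glb1 (beta-galactosidase) fell from 2575 to 1874 on removal (-0.46 ± 0.041 SE, adjusted p 2.92e-12) and rose from 2142 to 2839 on addition (0.41 ± 0.041 SE, adjusted p 5.60e-11). Hexa (beta-hexosaminidase alpha chain) and Neu1 (sialidase) moved against it, Hexa by 0.36 and -0.17 and Neu1 by 0.22 and -0.42 for removal and addition, without overlap. Gaa (acid alpha-glucosidase) was at -0.09 on removal (adjusted p 0.0381), a call lost without any 1 of replicates 0 and 1 of methionine-free medium or 1 and 2 of complete fresh medium (adjusted p 0.0523 to 0.123), with edgeR and with DESeq2, and at 0.06 with total-read scaling. Addition gave 0.02 for Gaa, not called, but -0.11 with total-read scaling, which was (adjusted p 0.0156). Ctsa, the protease that protects NEU1 and GLB1, fell on removal by log2 -0.41 and was not called on addition (0.06, adjusted p 0.0521), although it was without replicate 3 of complete fresh medium, 1 of supernatant or 3 of supplemented supernatant (adjusted p 0.00766 to 0.049), and with total-read scaling it was called in the other direction (-0.07, adjusted p 0.0416). Psap, the precursor of the saposin activators, fell from 15953 to 13395 on removal (-0.25 ± 0.027 SE, adjusted p 1.86e-10), a call lost with quantile normalization (adjusted p 0.559), and was not called on addition (-0.04). Psap was called lower on addition, however, at -0.17 with total-read scaling (adjusted p 4.44e-07) and -0.22 with quantile normalization (1.05e-08).

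Myeloid cells are rich in lysosomal enzymes, so their markers are given here. Of 8 listed, 7 had values and 3 were tested, and their summed level was 343 to 408 in complete fresh medium, 144 to 211 without methionine, 156 to 178 in supernatant and 157 to 220.3 in supplemented supernatant. In fresh medium the sum followed Cd68, a lysosomal membrane protein, which fell on removal from 328 to 104 (log2 -1.68). On addition to supernatant Cd68 rose from 76.1 to 152 (0.99), while the sums of these media overlapped. Of the others, Cd14 rose from 5.03 to 17.9 (log2 1.60), Itgam was at 34 and 44.2 and was not called, and Lyz2, too low to be tested, was at 6.77 and 14.9. Cd14 passed the filter on low values only through its means without methionine (17.9) and in supernatant (23.5). In complete fresh medium and supplemented supernatant its means, 5.03 and 2.91, lay below that filter, so its rise rests on few reads. The part of these markers in the values of the enzymes was not tested. Fcgr1 was at 0 in all libraries of supplemented supernatant. Per transcript length, the 41 genes ran in complete fresh medium from Mitf at 0.144 ± 0.0307 FPKM (SD, n = 4) and Optn at 3.28 ± 0.446 to Ctsd at 242 ± 16.9. Psap at 183 ± 25.8 and Gabarap at 175 ± 21.5 came next below Ctsd and did not differ beyond their spread.

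The effects of removal and of addition, which share no library, were mostly opposite in sign. Of 29 genes called in both, 25 went in opposite directions, 12 being higher without methionine and lower after addition and 13 the reverse. Over all genes tested, 93.8% of the 9431 called in both went in opposite directions. The 4 exceptions here were Sqstm1, which rose in both, and Atg2a, Ctsb and Lamp1, which were lower in both, except that Atg2a and Lamp1 were higher on removal with total-read scaling and Lamp1 also with quantile normalization. Across the 41 genes, which are not independent replicates, the log2 fold changes of removal and addition correlated with a Pearson r of -0.87 (Spearman rho -0.76), against -0.89 and -0.88 across all genes tested.

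**Figure D3:**
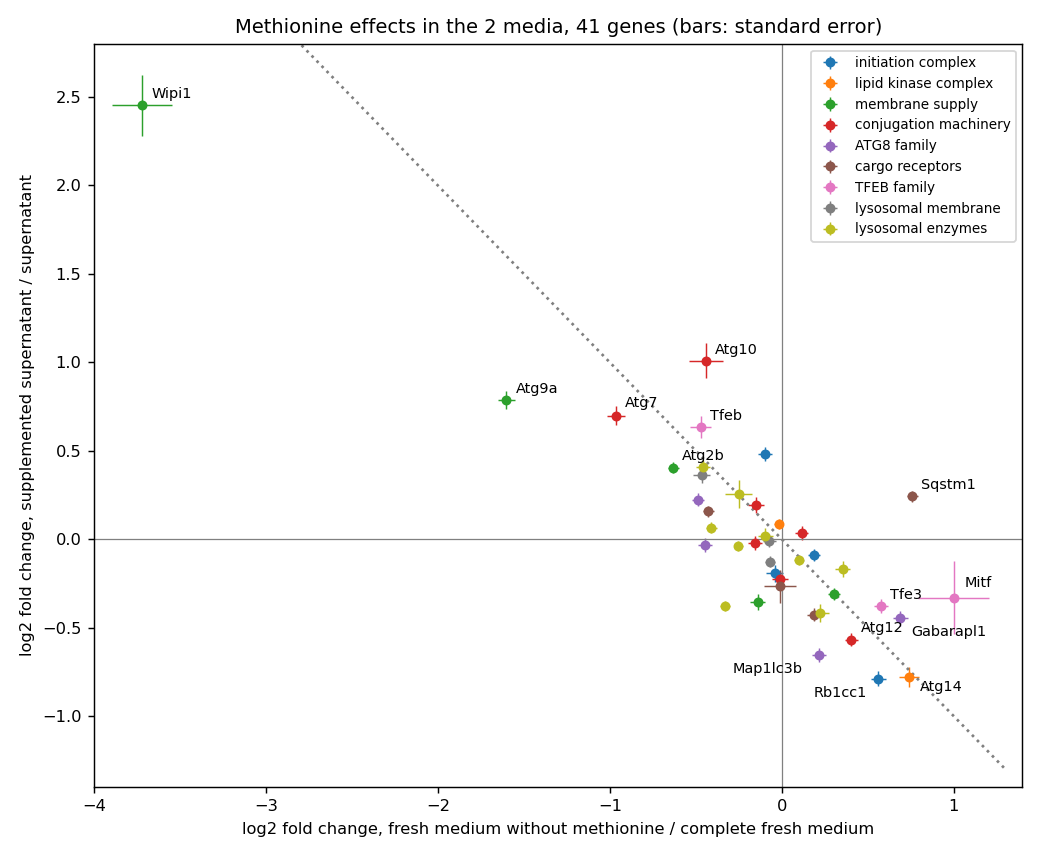
Log2 fold change of each of the 41 genes on removal of methionine from fresh medium (horizontal axis) against that on addition to supernatant (vertical axis), with standard errors as bars and colours by role. The dotted line marks equal and opposite changes. Most genes lie near it, Sqstm1 lies in the upper right, and Wipi1 at -3.72 and 2.45 is the farthest from the centre.

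Whether methionine had the same effect in supernatant as in fresh medium was tested as a difference of the methionine effects, (Sup+ minus Sup-) minus (fresh+ minus fresh-). Of the 41 genes, 7 were called higher and 20 lower, against 27.6% and 25.0% of all genes tested. Among the called genes, the largest positive differences were those of Sqstm1 at 1.001 ± 0.044 (SE, adjusted p 7.08e-19), Atg10 at 0.57 ± 0.14 (0.000966), Ulk2 at 0.39 ± 0.057 (9.22e-07), Gabarapl1 at 0.24 ± 0.06 (0.00112) and Tfe3 at 0.20 ± 0.057 (0.00427). Mitf, at 0.67 ± 0.29 (0.0536), had a larger difference than Atg10 but was not called. The largest negative ones were those of Wipi1 at -1.27 ± 0.25 (5.56e-05), Atg9a at -0.81 ± 0.071 (1.71e-11), Ctsb at -0.71 ± 0.043 (2.18e-15), Atg2a at -0.49 ± 0.062 (4.13e-08) and Gabarapl2 at -0.48 ± 0.056 (1.28e-08). Wipi1 and Atg9a were higher with methionine in both media, by less in supernatant. Ctsb was higher with methionine in fresh medium and lower with it in supernatant.

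Supernatant and methionine-free fresh medium, whose libraries also enter the addition and removal comparisons, differed in the fewest genes. Between them 3 of the 41 were called higher in supernatant and 5 lower, against 14.0% and 12.9% of all genes tested. Gaa was 0.23 (adjusted p 9.91e-05), Glb1 0.19 (0.000483) and Ctsb 0.08 (0.0433), all lysosomal enzyme genes. The lower genes were Optn at -0.34 (0.00551), Atg14 at -0.25 (0.00163), Ulk1 at -0.22 (0.000998, overlapping libraries), Atg13 at -0.17 (0.000273) and Nbr1 at -0.10 (0.0485), all genes of autophagy. The call of Ctsb was lost without any 1 library of methionine-free medium, replicates 0, 1 and 2 of supernatant or 0 of supplemented supernatant (adjusted p 0.0506 to 0.132), and with edgeR (0.0987), DESeq2 (0.0683), no filter on low values (0.0578) and total-read scaling (0.0841). That of Nbr1 was lost without any 1 of replicates 0, 2 and 3 of methionine-free medium, 2 of complete fresh medium, any of supernatant or 0 of supplemented supernatant (adjusted p 0.0533 to 0.139), and with no filter (0.0691). In addition, the count of higher genes was 5 without replicate 3 of supplemented supernatant, which enters through the shared spread.

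Supernatant and supplemented supernatant were each also compared with complete fresh medium, which shares those 4 control libraries with removal. In supernatant 15 of the 41 were called higher and 19 lower, against 43.0% and 42.5% of all genes, or 19 and 15 with total-read scaling, against 49.8% and 35.8%. Mitf was the 1 gene at least 2-fold higher, where 14.2% of all genes were, and this count was 0 without replicate 1 of complete fresh medium. Wipi1 and Atg9a were at least 2-fold lower, where 13.4% were. The highest values were those of Mitf at 1.14, Sqstm1 at 0.81, Gabarapl1 at 0.73, Tfe3 at 0.53 and Rb1cc1 at 0.52, and the lowest those of Wipi1 at -3.45, Atg9a at -1.47, Atg7 at -0.95, Atg2b at -0.58 and Gabarap at -0.50, all without overlap. These 10 genes have adjusted p between 1.41e-23 and 7.66e-06.

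In supplemented supernatant 14 of the 41 were called above complete fresh medium and 22 below it, against 32.5% of all genes in each direction. Sqstm1 was 1.05 ± 0.031 (SE, adjusted p 4.60e-24) above, followed by Mitf at 0.81, Atg10 at 0.54, Ulk2 at 0.41 and Gabarapl1 at 0.28. Wipi1 at -0.996 ± 0.17 (SE, adjusted p 7.49e-06), Atg9a at -0.69, Ctsb at -0.63, Optn at -0.62 and Atg2a at -0.54 were lowest, all without overlap. All 3 genes of the TFEB family were called higher here, and 4 of the 5 membrane supply genes lower.

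Other genes of the pathway, listed by function, included larger single changes than most of the 41. The lists were chosen with earlier results of these data known. Of all genes tested, 43.3% rose and 42.3% fell on removal, and 41.8% rose and 41.8% fell on addition. With total-read scaling these shares were 51.1% and 35.1% on removal, and 34.9% and 49.4% on addition. Of 24 other genes of the autophagy machinery tested, 12 rose and 9 fell on removal, with a median of 0.10, and 6 rose and 16 fell on addition, with a median of -0.30. With total-read scaling these were 15 and 7 (median 0.26) and 5 and 18 (median -0.43). Trp53inp2 fell most (log2 -2.15), and Nrbf2, a partner of the lipid kinase complex, and Trp53inp1, which binds ATG8 proteins, rose (1.13 and 1.0). Of 13 other selective receptors, 5 rose and 6 fell on removal, with a median of 0.01 (-0.02 with quantile normalization, and 0.17 with total-read scaling, where 7 rose and 5 fell), and 6 rose and 6 fell on addition, with a median of 0.07 (-0.06 with total-read scaling). The mitophagy receptor Bnip3 went from 17152 to 1179.7 depth-normalized reads on removal (log2 -3.86 ± 0.038, SE) and from 1798 to 10744 on addition (2.58 ± 0.038). Bnip3l and Calcoco1 also fell, by log2 -2.15 and -1.24.

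Of 16 vacuolar ATPase genes, whose pump acidifies the lysosome, 2 rose and 11 fell on removal (median -0.20, and 5 and 7 with total-read scaling, median -0.04). Atp6v1a at -1.16, Atp6v0a2 at -0.78 and Atp6v1d at -0.71 led the falls. On addition 11 rose and 4 fell (median 0.26, and 9 and 5 with total-read scaling, median 0.13). For this list and those below, the shares of all genes tested were 43.3% higher and 42.3% lower on removal, and 41.8% each on addition. With total-read scaling they were 51.1% and 35.1% on removal, and 34.9% and 49.4% on addition. Of 41 other lysosomal enzyme genes, 8 rose and 25 fell on removal (median -0.26, and 13 and 21 with total-read scaling, median -0.11), with Arsb, an arylsulfatase, at -2.79 and Galns, another sulfatase, at -1.69 among the lowest. On addition 21 of these enzymes rose and 14 fell (median 0.12), but 16 rose and 17 fell with total-read scaling (median -0.01). Of 27 other lysosomal membrane genes, 12 rose and 9 fell on removal (median 0.01, and 16 and 8 with total-read scaling, median 0.17), and 9 rose and 14 fell on addition (median -0.11, and 8 and 18 with total-read scaling, median -0.24), with Abca2 at -1.48, Slc11a2 at -1.14 and Npc2 at -0.95 the most changed on removal. Of 16 upstream regulators, 11 rose and 4 fell on removal (median 0.45), against 43.3% and 42.3% of all genes tested. On addition 2 of these regulators rose and 12 fell (median -0.28), against 41.8% of all genes in each direction. The signs of both medians held with each scaling. Sesn2, an inhibitor of mTORC1, rose from 982 to 4738 (log2 2.27 ± 0.046, SE) and Ddit3 (CHOP) from 796 to 3733 (2.23 ± 0.039). Prkaa2, an AMPK catalytic subunit, was at 3.08 with only 1.77 reads on average in complete fresh medium and 19 without methionine. The mean of Prkaa2 in complete fresh medium lay below the filter on low values, which it passed only through media with higher means. Its place among the tested regulators therefore depends on those higher means, and its rise rests on few reads.

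**Figure D4:**
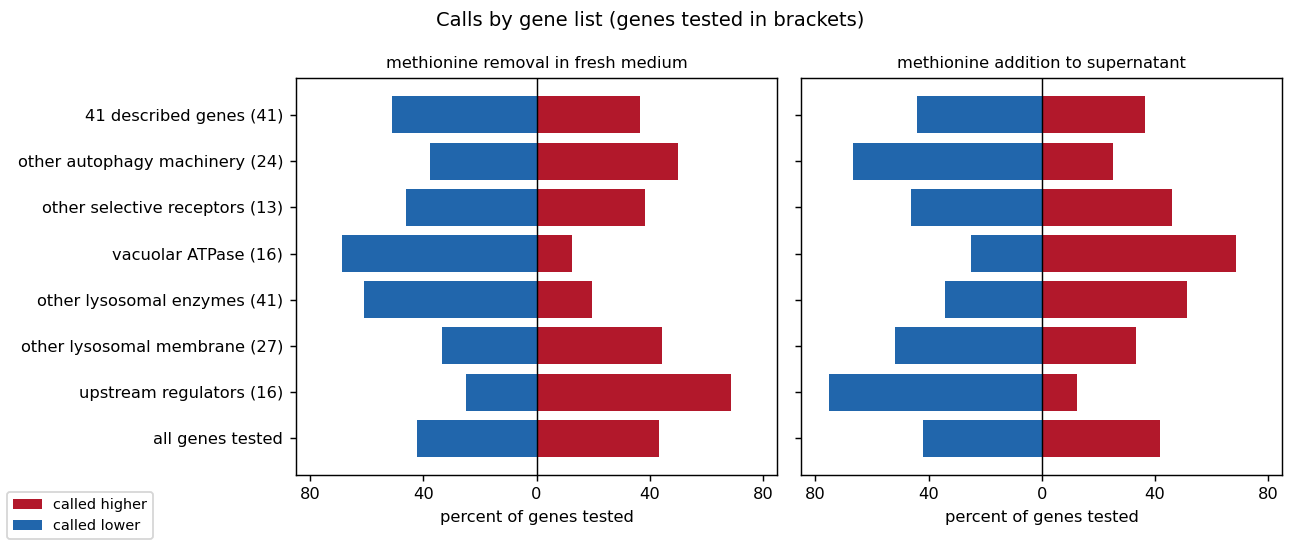
Share of genes called higher (red, right) and lower (blue, left) in each list, in percent of its tested genes (numbers in brackets), for removal in the left panel and addition in the right, with all genes tested in the bottom row. The 41 genes have 15 higher and 21 lower on removal, and the vacuolar ATPase has 2 higher and 11 lower. Among all genes tested, 43.3% are higher and 42.3% lower on removal.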

How the data were processed

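RNA-seq libraries of CD8+ T cells in 4 media, 4 libraries each, were analysed from the deposited tables. The authors deposited a signal table of gene counts divided by size factors, with 17159 genes, and a table of FPKM values with 23107. The submitters' processing notes name mm10, alignment tools (Bowtie2 2.2.1 and TopHat2 2.0.13), FastQC 0.11.3, Cuffdiff 2.2.1 and Cufflinks. The counting tool, gene annotation and strand setting are not given in the sources used here. Multiplied by its size factor, 100% of each library's values came out as whole reads within 0.001.

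The comparisons used limma 3.58.1 (trend, R 4.3.3) on log2(value + 1) of the 12469 genes whose mean was 10 or more, with 4 group means and Benjamini-Hochberg adjustment over all of them, two-sided. The 41 members, the other lists and the markers were chosen with earlier results of these data known. All members are named for removal and addition of methionine. For the other comparisons up to 5 called members in each direction are named, by size. Values of every library are given for 10 preset genes and the 8 with the largest change on removal, which overlap. In other lists the 3 largest called changes on removal are named, except that 1 gene is not reported here. Of the other listed genes, Atg101, Rubcn, Wdr45b and Epg5 were not analysed here.

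Alternatives were edgeR 4.0.16 and DESeq2 1.42.0 on the recovered reads of 15 libraries, no filter or a mean of at least 50, pseudocounts of 0.5 and 10, total-read scaling, quantile normalization, only the groups compared, a replicate block, log2(FPKM + 0.1), and leaving out each library. The fits on reads left out replicate 1 of methionine-free medium, whose size factor of 1.0114 was the nearest to 1. Its values came out as whole reads like those of the other libraries. On removal, edgeR called 10570 genes and limma 10672. Promoters and gene positions were read with Python 3.11.15. The fits were tested on simulated data in which few genes changed, in methionine-free medium only, with the size factors given. That test therefore does not bear on the choice of scaling.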

Additional observations from a re-analysis of the deposited data

Results flagged for a closer look

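In 10 of 164 sets of 4 libraries (41 genes in 4 media), the highest or lowest library stood apart from the other 3 beyond Dixon's 95% limit, and chance gives about 1 in 20. In supernatant these were Wipi1 at 25.8 depth-normalized reads and Neu1 at 1547 in replicate 1, Mitf at 68.4 and Gaa at 2023 in replicate 2, and Nbr1 at 3944 in replicate 3. In supplemented supernatant Gabarapl2 was at 1896.5 and Hexa at 1688 in replicate 2. In complete fresh medium Wipi2 was at 2775 in replicate 0 and Hexa at 1199.5 in replicate 1, and without methionine Ctsd was at 17631 in replicate 3.

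For 27 of the 41 genes the methionine effect differed between supernatant and fresh medium in limma's test of the difference (adjusted p under 0.05). The same test called 6557 of all 12469 genes tested, 27.6% higher and 25.0% lower, so such a difference was common in these data. The values are given here as log2 effect in supernatant minus that in fresh medium. In autophagosome initiation and membrane supply, Ulk1 was -0.23, Ulk2 0.39, Rb1cc1 -0.23, Wipi1 -1.27, Atg2a -0.49, Atg2b -0.23 and Atg9a -0.81, so that Ulk2 was the only positive value of these 7. In conjugation, Atg4b was -0.18, Atg5 0.15, Atg7 -0.27, Atg10 0.57, Atg12 -0.16 and Atg16l1 -0.23. Among ATG8 genes Map1lc3b was -0.44, Gabarap -0.26, Gabarapl1 0.24 and Gabarapl2 -0.48. Of the receptors, Sqstm1 was 1.001, Nbr1 -0.24 and Tax1bp1 -0.27. Tfe3 was 0.20 and Lamp1 -0.19. Among the lysosomal enzymes Ctsa was -0.34, Ctsb -0.71, Hexa 0.19, Neu1 -0.19 and Psap -0.29.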

How the results depend on the processing

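Of 138 results for named genes, all kept their direction and call with pseudocounts of 0.5 and 10 and with the replicate block, as did the 128 that could be fitted with only the groups compared and the 133 left at a mean of at least 50. edgeR kept 130, DESeq2 133, no filter 135, quantile normalization 125, total-read scaling 113, values in FPKM 75 and the FPKM table with the replicate block 114. Leaving out each library kept 2160 of 2208. For comparisons between media this count includes libraries of the media not compared. Their loss leaves the fold change as it was and alters only the shared spread, so part of the agreement was bound to occur. The replicate numbers did not pair the libraries in the depth-normalized values (correlation of deviations from group means -0.07 to 0.07 over 24 pairs, and 5 of 16 libraries nearest to their own number), and the block left the counts on removal at 15 and 21. In the FPKM table they correlated at 0.43 to 0.86.

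Counts of the 41 genes called moved most in the FPKM table fitted without the replicate block: removal gave 5 higher and 11 lower, addition 8 and 7, supernatant against complete fresh medium 5 higher, supplemented supernatant against it 1 and 8, supernatant against methionine-free medium 0 and 0, and the difference of the methionine effects 1 and 2. In the FPKM comparison of supernatant with methionine-free medium, limma gave 1 higher and 2 lower at an unadjusted p under 0.05, while at the adjusted threshold edgeR and DESeq2 each called 2 higher and 5 lower on reads. With the replicate block, which raises the calls on removal over all genes from 7427 to 9932, FPKM gave 12 higher and 18 lower on removal, 13 and 12 on addition, 7 higher for supplemented supernatant against complete medium, 2 lower for supernatant against methionine-free medium, and 3 higher and 13 lower for the difference. The count at least 2-fold higher on removal was 0 with edgeR, DESeq2, a mean of at least 50, a pseudocount of 10, quantile normalization and FPKM with and without the block. On addition it was 1 with a pseudocount of 10, total-read scaling and quantile normalization. For supernatant against complete medium it was 0 with a mean of at least 50, a pseudocount of 10 and FPKM with and without the block. Leaving out a library moved these 3 counts over 0 to 1, 1 to 2 and 0 to 1, and the genes higher in supernatant than in methionine-free medium over 2 to 5. The filter at 50 drops Mitf, which accounts for its zero counts. In the other zero counts of genes at least 2-fold higher, Mitf was below 2-fold or not called. Why Mitf moved there, and what moved the other counts, was not tested.

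Signs turned mostly with total-read scaling, which shifts all genes. On removal the medians became 0.087 for the 41 genes, 0.0081 for conjugation, 0.044 for the ATG8 family and 0.087 for the lysosomal membrane, and the 41 stood at 0.082 for supernatant against complete medium. On removal Ulk1 became 0.12, Ulk2 0.065, Becn1 0.14, Atg2a 0.020, Atg3 0.0081, Atg4b 0.0033, Atg16l1 0.15, Optn 0.15, Lamp1 0.093, Lamp2 0.087 and Gaa 0.065. On addition Becn1 became -0.046, Atg5 -0.096, Ctsa -0.067 and Gaa -0.11. With quantile normalization, Becn1 became 0.060, Optn 0.037 and Lamp1 0.026 on removal, and Atg4b 0.0093 and Lamp2 0.012 on addition. edgeR gave Ulk1 0.011, Becn1 0.00099, Atg16l1 0.0022 and Optn 0.022 on removal, and DESeq2 Ulk1 0.00046 and Optn 0.013. The FPKM table, with and without the block, gave -0.0084 for the initiation median, 0.020 for Optn and -0.022 for Ctsd on removal, and 0.025 for Gabarapl2 on addition. The addition median of the TFEB family became 0.13 at a mean of at least 50, which leaves out Mitf. Leaving out 1 library gave ranges that cross 0 for Atg4b (-0.054 to 0.00014), Lamp2 (-0.029 to 0.017) and Gaa (-0.033 to 0.049) on addition, and for Atg16l1 (-0.021 to 0.0060) and Optn (-0.060 to 0.053) on removal, none of them called.

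Every library held at least 25799636 reads, and the lowest levels were those of Wipi1 and Mitf, from 12.2 and 16.9 depth-normalized reads. The labels do not tie libraries to mice. Sets of 4 libraries limit the precision of each SE.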
